A study of Mus musculus with 8 samples.

Results

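The genes described here are 10 members of the FGF and PDGF growth factor systems that were measured in NMuMG cells: the receptors Fgfr1, Fgfr2 and Fgfr3, the ligands Fgf1 and Fgf2, the FGF-binding protein Fgfbp1, the ligands Pdgfa, Pdgfb and Pdgfc, and the receptor Pdgfrb. They were picked by name, as genes whose probe set carries exactly 1 gene symbol, out of 19937 genes measured on the same arrays. Each of the 10 had 1 probe set. NMuMG is an untransformed mouse mammary epithelial line, of which the study used a subclone, so that every value comes from a single clone. Cells were transfected with a pool of siRNAs against the transcription factor Klf4 (siKlf4) or with a control siRNA (siControl), and each was cultured either with 2 ng/ml TGFβ for 2 days or without TGFβ. The arrays fall into 4 groups of 2: siKlf4 with TGFβ, siControl with TGFβ, siKlf4 without TGFβ and siControl without TGFβ. The design asks what loss of Klf4 changes in the presence and in the absence of TGFβ. Nothing in the sources ties the paired arrays of a group to independent transfections, and all p-values rest on array-to-array spread that may be no more than technical.

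FGFs and PDGFs are secreted proteins that bind receptor tyrosine kinases and through them activate the Ras-MAP kinase, PI3 kinase and phospholipase C pathways. Epithelial cells typically carry an FGFR2 splice form that binds FGFs made by the surrounding stroma, and epithelial-mesenchymal transition (EMT), the conversion of epithelial into motile fibroblast-like cells that TGFβ can induce, is known for a shift toward FGFR1 and mesenchymal splice forms. PDGF receptors belong mainly to mesenchymal cells, whereas PDGF ligands are also made by epithelial cells. The values below are log2 array values per gene. They cannot tell splice forms apart, and the level of a gene's probe set cannot be set against that of another gene.

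The 8 arrays were alike in scale, with medians between 4.90 and 5.002, and the arrays of a group correlated with an r of 0.997 to 0.998 across genes. Klf4 itself read 7.43 and 7.24 on the siKlf4 arrays with TGFβ, 7.46 and 7.46 on the siControl arrays with TGFβ, 8.03 and 7.91 on the siKlf4 arrays without TGFβ, and 8.60 and 8.43 on the siControl arrays without TGFβ. Along the siRNA label, the Klf4 difference was −0.13 with TGFβ (adjusted p = 0.444) and −0.54 without (adjusted p = 0.00369). Along the TGFβ label it was −0.63 in siKlf4 (adjusted p = 0.00295) and −1.05 in siControl (adjusted p = 3.57e-04). Of 8 measured genes that TGFβ classically induces, 7 were higher on the siKlf4 arrays both with TGFβ (median log2 difference 1.79) and without it (median 1.43), whereas with TGFβ against none 3 were higher and 0 lower in siKlf4 (median 0.20), and 0 were higher and 1 was lower in siControl (median −0.06). siKlf4, siControl and TGFβ therefore name array labels throughout. Words such as effect and fell describe differences between arrays so labeled, and whether these reflect loss of Klf4 was not tested. The 7 epithelial markers averaged between 8.87 and 9.04 on every array, but single keratins moved in both directions: in siKlf4, with and without TGFβ, Krt8 was higher (0.36 and 0.30), Krt18 was higher (0.55 and 0.54) and Krt19 was lower (−1.04 and −0.99). With TGFβ against none, 1 of the 7 was called higher and 0 lower in siKlf4, and 0 were called in siControl. Cdh1 (E-cadherin) read 10.79 and 10.89 in siKlf4 with TGFβ and 10.62 and 10.62 in siControl with TGFβ. Without TGFβ it read 10.20 and 10.15 in siKlf4 and 10.37 and 10.36 in siControl. Epcam lay among the dimmest 30% of genes. Stromal, leukocyte and endothelial markers averaged between 4.07 and 5.20, with 7 of the 14 among the dimmest 30%, including Ptprc, Lyz2, Pecam1, Dcn and Lum. Others were brighter: the leukocyte marker Cd68 read between 5.59 and 7.58, and the stromal marker Col1a1 between 6.21 and 7.59. Of the 4 leukocyte markers, 1 was called higher in siKlf4 with TGFβ. In siKlf4 and in siControl, 1 was called lower with TGFβ than without. The markers named here were picked after their values were seen.

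Of the 10 genes, 6 differed between siKlf4 and siControl with TGFβ (limma, adjusted p below 0.05 over all genes), as did 24.2% of all genes. The PDGF ligands Pdgfa, Pdgfb and Pdgfc were higher on the siKlf4 arrays (12.3% of all genes were called higher), and Fgfr2, Fgf1 and Fgfbp1 were lower (11.9% of all genes were called lower). Without TGFβ, 7 of the 10 differed, against 19.7% of all genes, with the same 3 genes lower (background 9.71%), and with Pdgfrb joining the 3 PDGF ligands among those higher (background 9.98%). The median size of the difference over the 10 genes was 0.71 with TGFβ and 0.81 without, beside 0.14 and 0.13 over all genes. Values of the compared arrays did not overlap for 10 of the 10 genes with TGFβ and for 8 without, but this was so for 62.4% and 49.1% of all genes. Fgfr1, Fgfr3 and Fgf2 passed the threshold in none of the comparisons.

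**Figure D1:**
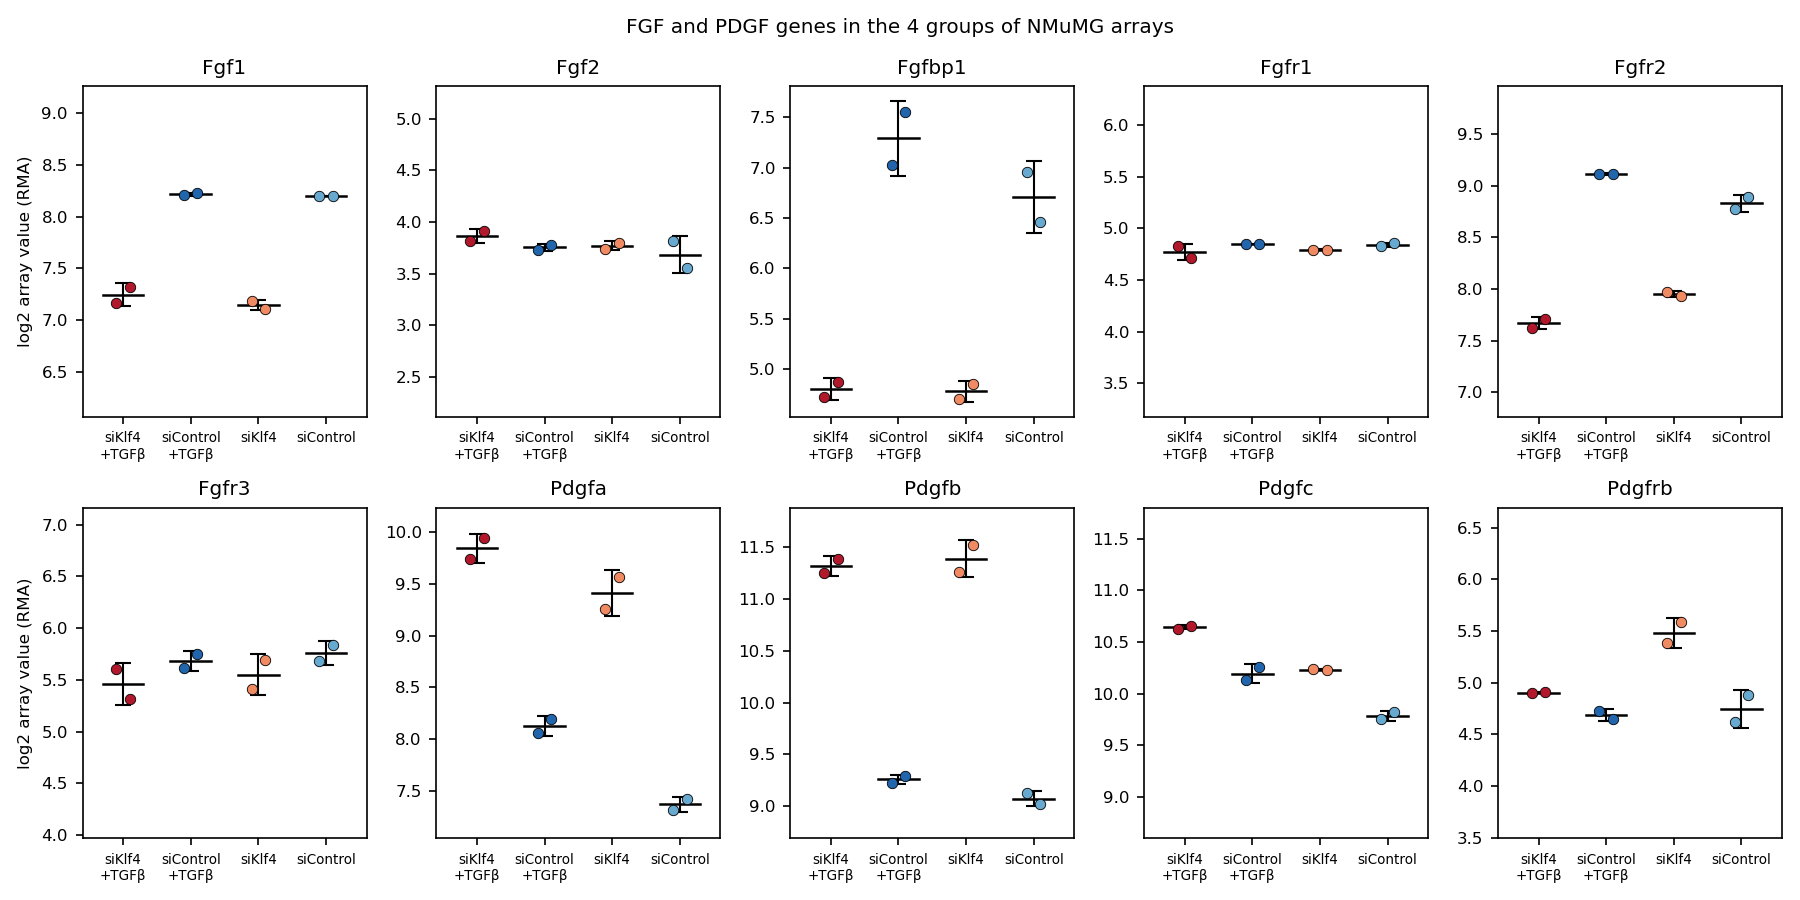
Log2 array value (y axis, the same span in every panel) of each of the 10 genes on the 8 arrays, 2 per group. Circles are arrays, the long horizontal line is the group mean and the error bar is the SD; Pdgfb sits between 11.26 and 11.52 in both siKlf4 groups and between 9.02 and 9.29 in both siControl groups, while Fgfr1 stays between 4.72 and 4.85 in all 4.

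Among the ligands, Pdgfb, whose homodimer PDGF-BB binds both PDGF receptors, differed most between siKlf4 and siControl, with and without TGFβ. It read 11.26 and 11.39 in siKlf4 with TGFβ and 9.23 and 9.29 in siControl with TGFβ. In the absence of TGFβ it read 11.27 and 11.52 in siKlf4 and 9.12 and 9.02 in siControl. The 4 siKlf4 arrays thus lay well above the 4 siControl arrays whether or not TGFβ was given. The difference was 2.06 on the log2 scale with TGFβ (SE 0.103, 4.18-fold, adjusted p = 1.45e-06) and 2.32 without (SE 0.103, 5.0-fold, adjusted p = 1.40e-06). Pdgfb had no called difference between TGFβ and none, with 95% intervals of −0.30 to 0.16 in siKlf4 and −0.05 to 0.42 in siControl.

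Pdgfa, which encodes the A chain that acts through the PDGF receptor alpha, was higher on siKlf4 arrays too, and also moved with TGFβ. It read 9.74 and 9.94 in siKlf4 with TGFβ, 8.06 and 8.20 in siControl with TGFβ, 9.26 and 9.57 in siKlf4 without TGFβ, and 7.31 and 7.42 in siControl without TGFβ. No 2 of the 4 groups overlapped, and their order was siKlf4 with TGFβ, siKlf4 without, siControl with TGFβ and siControl without, from high to low. siKlf4 exceeded siControl by 1.72 with TGFβ (SE 0.121, 3.29-fold, adjusted p = 8.84e-06) and by 2.05 without (4.13-fold, adjusted p = 5.87e-06). Pdgfa was 0.76 higher with TGFβ than without in siControl (SE 0.121, 1.69-fold, adjusted p = 0.00393). This call was lost with contrasts that do not moderate the variance across genes (adjusted p = 0.0669). In siKlf4 the TGFβ difference of 0.43 only just passed the threshold (adjusted p = 0.0491), and it no longer passed in 7 of the 8 fits that left out 1 array, all but the fit without siKlf4 replicate 2 (adjusted p up to 0.299).

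Pdgfc, a ligand that is secreted in latent form and freed by proteases, showed smaller differences of the same direction. It read 10.63 and 10.66 in siKlf4 with TGFβ, 10.13 and 10.26 in siControl with TGFβ, 10.24 and 10.23 in siKlf4 without TGFβ, and 9.75 and 9.82 in siControl without TGFβ. The siKlf4 arrays without TGFβ fell within the range of the siControl arrays with TGFβ, and the other groups stood apart. siKlf4 exceeded siControl by 0.45 with TGFβ (SE 0.0806, 1.36-fold, adjusted p = 0.00281) and by 0.45 without (1.36-fold, adjusted p = 0.00361). With TGFβ it was 0.41 higher than without in siKlf4 (adjusted p = 0.00953) and 0.41 higher in siControl (adjusted p = 0.0110). The TGFβ call in siKlf4 was lost without replicate 1 or 2 of siKlf4 with TGFβ (adjusted p = 0.0611 and 0.0804), and that in siControl without siControl replicate 1 (0.0594) or replicate 2 of siControl with TGFβ (0.107).

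The RefSeq promoter windows of Pdgfa are shown because Kruppel-like factors such as Klf4 bind GC-rich and CACCC-type boxes and Pdgfa was higher in siKlf4 in both TGFβ states. RefSeq (GRCm38.p6) windows of 300 bases, from 250 before to 50 after a start, matched 6 of the 10 genes, with 8 starts in all. Windows on a withheld chromosome were left out before matching, so a gene without a match may still have a RefSeq start. The letters CACCC were searched on both strands (on the other strand they read GGGTG) and are in capitals; CCACACCC, a longer form that contains CACCC, was searched likewise.
Pdgfa, first start, chr5:138994232-138994531, minus strand: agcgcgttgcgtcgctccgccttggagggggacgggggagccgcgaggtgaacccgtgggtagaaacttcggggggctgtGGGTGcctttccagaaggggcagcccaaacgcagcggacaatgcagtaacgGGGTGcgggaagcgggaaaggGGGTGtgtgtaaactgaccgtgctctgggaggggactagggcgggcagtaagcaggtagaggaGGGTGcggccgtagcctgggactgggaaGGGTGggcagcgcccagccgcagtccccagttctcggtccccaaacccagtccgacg
Pdgfa, second start, chr5:138994895-138995194, minus strand: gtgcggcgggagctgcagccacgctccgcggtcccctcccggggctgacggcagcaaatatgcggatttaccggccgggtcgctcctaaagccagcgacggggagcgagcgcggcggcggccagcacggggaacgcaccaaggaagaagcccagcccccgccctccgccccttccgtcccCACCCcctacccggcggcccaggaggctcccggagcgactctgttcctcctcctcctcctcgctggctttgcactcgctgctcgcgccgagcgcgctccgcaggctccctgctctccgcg
The first window holds 5 copies of CACCC and the second holds 1, and neither holds CCACACCC. The windows are ordered by coordinate, and on the minus strand the second lies upstream of the first. Of 32851 promoter windows of this length, 57.5% hold CACCC and 1.02% hold 5 or more copies. The Pdgfc window holds 1 copy. These are matches of letters, not measured binding.

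Pdgfrb, the PDGF receptor beta, was called higher in siKlf4 without TGFβ and was not called with TGFβ. It read 5.38 and 5.59 in siKlf4 without TGFβ and 4.62 and 4.88 in siControl without TGFβ. With TGFβ it read 4.90 and 4.91 in siKlf4 and 4.73 and 4.65 in siControl. The 2 siKlf4 arrays without TGFβ lay above the other 6. siKlf4 exceeded siControl by 0.73 without TGFβ (SE 0.109, 1.66-fold, adjusted p = 0.00116), and by 0.21 with TGFβ (95% interval −0.03 to 0.46, adjusted p = 0.215). The second of these passed the threshold after cyclic loess normalization of the deposited values (adjusted p = 0.0377). In siKlf4, Pdgfrb fell by 0.58 with TGFβ (1.49-fold lower, adjusted p = 0.00795), a call lost without siKlf4 replicate 2 (0.0549), without replicate 1 or 2 of siKlf4 with TGFβ (0.0596 and 0.0562) or with unmoderated contrasts (0.0761). The difference between the 2 siKlf4 effects was −0.52 and was not called (95% interval −0.87 to −0.17, adjusted p = 0.178).

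Stromal marker levels are given beside Pdgfrb, which mesenchymal cells typically express. The 6 stromal markers averaged 4.98 to 5.02 per array in siKlf4 with TGFβ and 4.955 to 4.996 in siControl with TGFβ. Without TGFβ they averaged 5.03 to 5.20 in siKlf4 and 4.79 to 4.98 in siControl. Of the 6, Col1a1, a type I collagen chain, was called higher in siKlf4 both with TGFβ (0.65, adjusted p = 0.00639), where Pdgfrb was not called, and without (1.13, adjusted p = 3.23e-04). Thy1 was called lower in siKlf4 than in siControl with TGFβ (−0.27, adjusted p = 0.0368). The other 4, Col1a2, Col3a1, Dcn and Lum, were not called in either comparison, and Dcn and Lum were among the dimmest 30% of genes. All arrays come from the same subclone. In this bulk RNA, more cells that express a gene and more of its RNA per cell cannot be told apart, and neither was tested for Pdgfrb.

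Fgfbp1, a secreted carrier that releases FGFs from the extracellular matrix, was the gene of the 10 with the largest difference with TGFβ. It read 4.72 and 4.87 in siKlf4 with TGFβ and 7.03 and 7.55 in siControl with TGFβ. Without TGFβ it read 4.70 and 4.85 in siKlf4 and 6.96 and 6.46 in siControl. All 4 siKlf4 arrays were within 0.17 of each other, 1.58 or more below every siControl array. These siKlf4 values lay below the median of 5.60 over all genes, and the data give no detection call. How far array background limits the size of the siKlf4 difference could not be read. The siKlf4 difference was −2.50 with TGFβ (SE 0.193, 5.64-fold lower, adjusted p = 1.51e-05) and −1.93 without (SE 0.193, 3.81-fold lower, adjusted p = 1.16e-04). In siControl, Fgfbp1 was 0.58 higher with TGFβ than without, which did not pass the threshold (95% interval 0.15 to 1.02, adjusted p = 0.0901). Its SE was the largest of the 10 genes, and the SD of its arrays was 0.36 in siControl with TGFβ and 0.35 in siControl without.

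Fgfbp1 also has a RefSeq promoter window, shown because its difference was the largest of the 10 genes with TGFβ.
Fgfbp1, chr5:43981750-43982049, minus strand: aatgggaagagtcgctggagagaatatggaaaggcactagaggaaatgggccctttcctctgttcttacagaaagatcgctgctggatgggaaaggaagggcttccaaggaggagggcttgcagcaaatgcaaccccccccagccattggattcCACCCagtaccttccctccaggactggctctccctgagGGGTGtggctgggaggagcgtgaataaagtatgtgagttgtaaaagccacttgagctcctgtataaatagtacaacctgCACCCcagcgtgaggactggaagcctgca
It holds 3 copies of CACCC, of which 1, on the other strand, is part of a CCACACCC. Of all windows, 9.35% hold 3 or more copies of CACCC and 3.56% hold CCACACCC.

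Fgf1, a ligand that binds all FGF receptors, was lower in siKlf4 by about the same amount in either TGFβ state. It read 7.16 and 7.32 in siKlf4 with TGFβ, 8.21 and 8.23 in siControl with TGFβ, 7.18 and 7.11 in siKlf4 without TGFβ, and 8.20 and 8.20 in siControl without TGFβ. The siKlf4 and siControl arrays were fully separate, and the arrays with and without TGFβ lay side by side. The siKlf4 difference was −0.97 with TGFβ (SE 0.0834, 1.96-fold lower, adjusted p = 2.82e-05) and −1.06 without (2.08-fold lower, adjusted p = 3.0e-05). The interval of the TGFβ difference was −0.09 to 0.29 in siKlf4 and −0.17 to 0.20 in siControl.

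Fgf2, the other FGF ligand of the set, read between 3.56 and 3.91 on all arrays and lay among the dimmest 30% of genes, whose mean log2 value is below 4.18. The data give no detection call, so whether it was expressed at all could not be read from these values. Its differences were 0.11 with TGFβ (95% interval −0.12 to 0.33) and 0.08 without (−0.14 to 0.31).

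**Figure D2:**
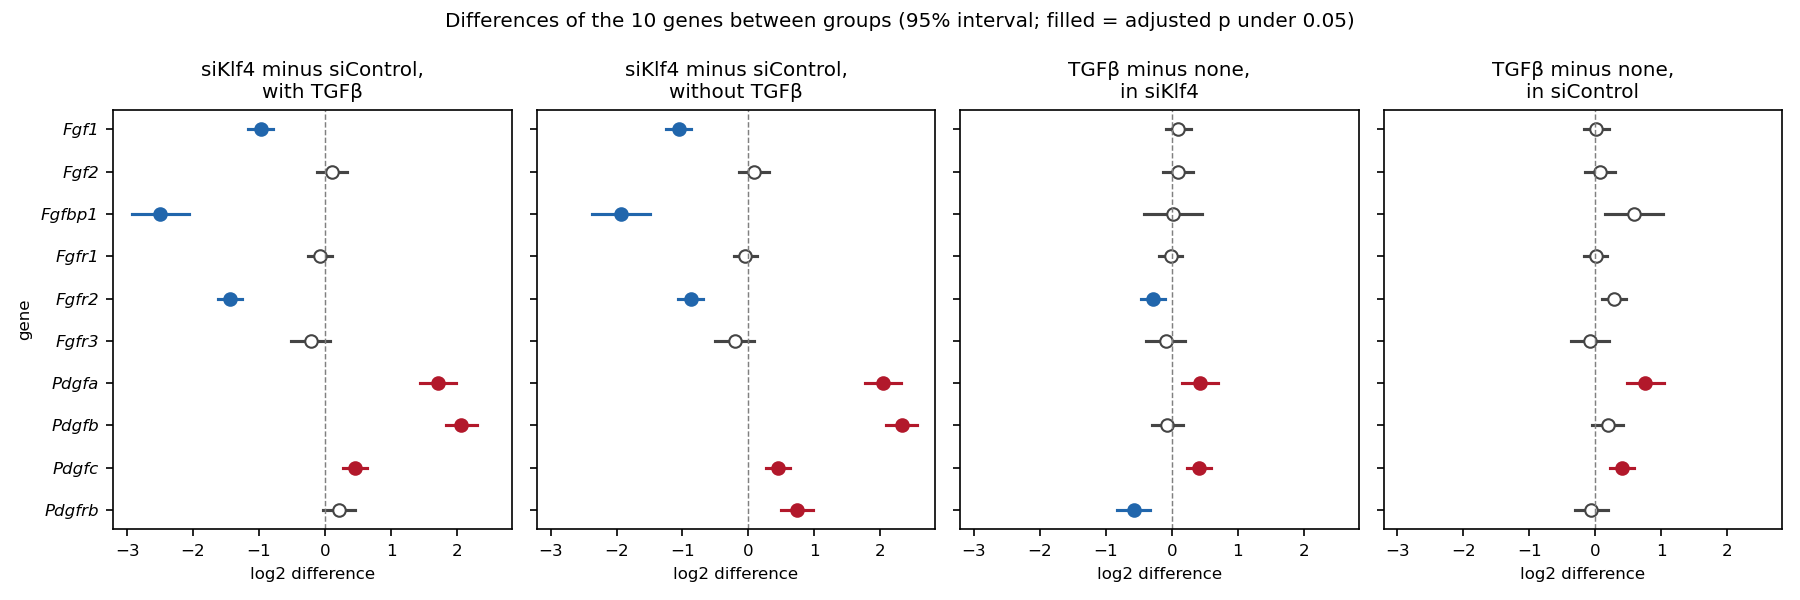
Log2 differences (x axis) of the 10 genes in 4 comparisons, the group named first minus the group it is set against. Circles are fitted differences, bars are 95% intervals and filled circles have an adjusted p under 0.05; the siKlf4 panels range from −2.50 (Fgfbp1, with TGFβ) to 2.32 (Pdgfb, without TGFβ), and the TGFβ panels from −0.58 (Pdgfrb, in siKlf4) to 0.76 (Pdgfa, in siControl).

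Of the FGF receptors, Fgfr2 was lower in siKlf4, and Fgfr1 and Fgfr3 had no called difference. Fgfr2 read 7.63 and 7.71 in siKlf4 with TGFβ and 9.12 and 9.11 in siControl with TGFβ. Without TGFβ, Fgfr2 read 7.97 and 7.93 in siKlf4 and 8.77 and 8.89 in siControl. The 4 groups did not overlap, with siKlf4 with TGFβ lowest and siControl with TGFβ highest. The siKlf4 difference was −1.44 with TGFβ (SE 0.0807, 2.72-fold lower, adjusted p = 2.49e-06) and −0.88 without (SE 0.0807, 1.84-fold lower, adjusted p = 7.17e-05). TGFβ went with opposite differences in the 2 backgrounds: Fgfr2 fell by 0.29 with TGFβ in siKlf4 (adjusted p = 0.0498) and was 0.28 higher in siControl, just short of the threshold (adjusted p = 0.0539). The call in siKlf4 was lost in 6 of the 8 fits without 1 array, all but those without a siControl array without TGFβ (adjusted p up to 0.275). The difference in siControl passed in 4 alternatives: trend and robust options (0.0142), quantile normalization (0.0360), cyclic loess (0.0365) and leaving out the dimmest 30% of genes (0.0326). The interaction, meaning how far the siKlf4 effect differed between the TGFβ states, was −0.57 (95% interval −0.83 to −0.31), at an adjusted p of 0.0509.

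Fgfr1, the receptor that mesenchymal cells commonly use, read 4.83 and 4.72 in siKlf4 with TGFβ, 4.84 and 4.85 in siControl with TGFβ, 4.79 and 4.79 in siKlf4 without TGFβ, and 4.83 and 4.85 in siControl without TGFβ. All 8 values lie within 0.14, and the siKlf4 arrays were the lower ones in either TGFβ state by no more than that. The siKlf4 difference was −0.08 with TGFβ (95% interval −0.25 to 0.10) and −0.05 without (−0.23 to 0.13). The TGFβ difference was −0.02 in siKlf4 (−0.20 to 0.16) and 0.01 in siControl (−0.17 to 0.18). The upper ends of these 4 intervals reached at most 0.18. The mean of Fgfr1 over the arrays was 4.81, below the median of 5.60 over all genes. Without a detection call, whether its level values reflect expression or background could not be read.

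Fgfr3 read 5.60 and 5.32 in siKlf4 with TGFβ, 5.61 and 5.75 in siControl with TGFβ, 5.41 and 5.69 in siKlf4 without TGFβ, and 5.68 and 5.84 in siControl without TGFβ. The siKlf4 arrays tended to the low side of a common range. The differences were −0.22 with TGFβ (95% interval −0.51 to 0.07, adjusted p = 0.294) and −0.21 without (−0.50 to 0.08, adjusted p = 0.357).

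The Fgfr2 to Fgfr1 balance was taken as the Fgfr2 value minus the Fgfr1 value on the same array, of which only the change between groups is read, since the 2 probe sets have no common scale. It was 2.80 and 2.99 in siKlf4 with TGFβ and 4.27 and 4.26 in siControl with TGFβ. Without TGFβ it was 3.18 and 3.14 in siKlf4 and 3.95 and 4.03 in siControl. The balance was lower on every siKlf4 array than on every siControl array. With TGFβ it was lower than without in siKlf4 and higher in siControl. The siKlf4 change was −1.37 with TGFβ, a 2.58-fold lower ratio, and −0.83 without TGFβ, a 1.78-fold lower ratio. The SD within groups was 0.0761. With TGFβ against none the change was −0.27 in siKlf4 and 0.27 in siControl. A 2-sided exact permutation test of 2 arrays against 2 cannot give less than 0.333, which each of these 4 comparisons reached. Pooled over the TGFβ states, with arrays permuted only within a state, the siKlf4 change was −1.10 with an exact p of 0.0556, the smallest this design allows. The change was carried by Fgfr2: in both siKlf4 comparisons the difference in Fgfr1 was −0.08 or nearer to 0. Since Fgfr1 has no detection call, its values cannot show that its expression was unchanged.

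**Figure D3:**
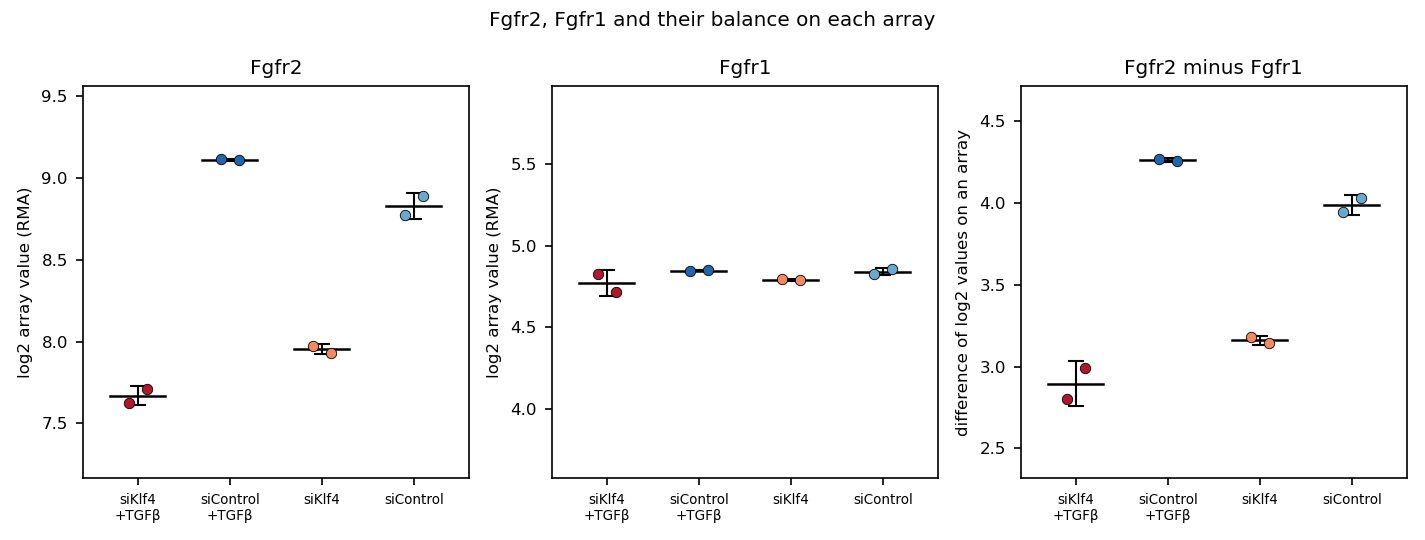
Fgfr2, Fgfr1 (log2 array value) and Fgfr2 minus Fgfr1 (difference of log2 values on an array) for the 2 arrays of each group, with the group mean as a line and the SD as error bar; the y axes cover the same span. The balance lies between 2.80 and 3.18 on the siKlf4 arrays and between 3.95 and 4.27 on the siControl arrays, and Fgfr1 stays level.

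The RefSeq window of Fgfr2 was picked because it holds no CACCC on either strand, whereas 57.5% of all windows hold it. Like Pdgfa and Fgfbp1, Fgfr2 was called in both siKlf4 comparisons.
Fgfr2, chr7:130266759-130267058, minus strand: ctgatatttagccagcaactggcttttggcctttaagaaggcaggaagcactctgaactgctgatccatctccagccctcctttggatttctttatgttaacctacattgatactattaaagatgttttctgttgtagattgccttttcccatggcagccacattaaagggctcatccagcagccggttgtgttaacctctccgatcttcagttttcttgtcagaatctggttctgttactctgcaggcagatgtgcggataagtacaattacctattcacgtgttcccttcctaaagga
The Fgf2 window holds 2 copies of CACCC, and the 2 windows of Fgfr3 hold 1 and 0. Fgf1, Fgfr1, Pdgfb and Pdgfrb were not matched among the windows used, which left out a withheld chromosome.

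The TGFβ comparisons reached fewer of the 10 genes than the siKlf4 comparisons did. In siKlf4, 4 of the 10 were called, beside 12.9% of all genes: Pdgfa and Pdgfc were higher (background 6.01%) and Fgfr2 and Pdgfrb lower (background 6.87%). In siControl, 2 were called, Pdgfa and Pdgfc, both higher, beside 12.5% of all genes called, 5.81% higher and 6.65% lower. Groups did not overlap for 5 of the 10 genes in siKlf4 (49.2% of all genes) and for 6 in siControl (51.6%). The median size of the TGFβ difference over the 10 genes was 0.10 in siKlf4 and 0.13 in siControl, beside 0.11 and 0.12 over all genes. Whether the siKlf4 effect itself depended on TGFβ was tested as an interaction, which called 0 of the 10 genes (limma) and 1.52% of all genes (0.547% higher, 0.978% lower). At an unadjusted threshold of 0.05 it called 2 of the 10, Fgfr2 and Pdgfrb, beside 12.1% of all genes. These comparisons share arrays pairwise and are not independent of each other.

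Genes whose values ran most like those of 4 of the members over the 8 arrays were sought among 13270 genes outside the dimmest 30%. Nearest to Fgfr2 were Ndufa9, Tspan15 and Psrc1, with Pearson's r of 0.996, 0.996 and 0.995. Nearest to Fgfbp1 were H2bc21, B4galt4 and Bcat2 (r = 0.992, 0.992 and 0.991), and nearest to Pdgfb were Txndc5, Mab21l4 and Ubtd1 (r = 0.999, 0.999 and 0.997). For Fgfr1, which barely varied, they were Edn2, Zfp41 and Hrct1 (r = 0.965, 0.928 and 0.927). The points are 8 arrays of 4 groups, so an r mostly reflects the group means, and it is given as a description.

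Other genes of the same pathways were read from 6 lists with 67 genes, of which 66 were measured. With TGFβ, 26 of the 66 differed between siKlf4 and siControl (15 higher, 11 lower), which is 39.4% beside 24.2% of all genes. Without TGFβ 18 differed (10 higher, 8 lower), which is 27.3% beside 19.7% of all genes. The counts of each list below stand beside the same shares over all genes. With TGFβ, 12.3% of all genes were called higher and 11.9% lower in siKlf4, and without TGFβ 9.98% and 9.71%.

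Of 20 other FGF ligands, 1 was higher and 3 were lower in siKlf4 with TGFβ, and without TGFβ 0 were higher and 1 was lower. The median differences were −0.06 and −0.02, beside −0.03 and 0.00 over all genes, and 6 of the 20 were among the dimmest 30%. Fgf18, a ligand of the mesenchymal FGF receptor forms, read 7.57 and 7.62 in siKlf4 with TGFβ and 8.90 and 8.95 in siControl with TGFβ. Without TGFβ it read 7.27 and 7.15 in siKlf4 and 7.46 and 7.46 in siControl. The siControl arrays with TGFβ stood alone at the top. The siKlf4 difference of Fgf18 was −1.33 with TGFβ (SE 0.0805, adjusted p = 3.77e-06) and −0.25 without (adjusted p = 0.0619), and the difference between these effects was called (−1.08, SE 0.114, adjusted p = 0.00611), a call lost with unmoderated contrasts (0.0707). TGFβ went with 0.38 more Fgf18 in siKlf4 (adjusted p = 0.0141, lost in 3 of the 8 fits without 1 array, up to 0.113, namely without siKlf4 replicate 2 or either siKlf4 array with TGFβ) and with 1.46 more in siControl (adjusted p = 3.90e-05). Fgf13, an FGF homologous factor that stays inside the cell, was lower in siKlf4 than in siControl in both TGFβ states. The siKlf4 difference was −1.15 with TGFβ (adjusted p = 9.39e-04) and −0.72 without (adjusted p = 0.0156). The second call was lost without siControl replicate 1 (difference −0.50) and without siKlf4 replicate 1 (−0.52). In siKlf4 against siControl with TGFβ, Fgf21, an endocrine FGF, was 0.44 higher (adjusted p = 0.0192). Fgf16, a ligand among the dimmest 30%, was 0.42 lower in the same comparison (adjusted p = 0.0121). Both of these calls were lost without replicate 1 or 2 of siControl with TGFβ or replicate 2 of siKlf4 with TGFβ (adjusted p up to 0.164 for Fgf21 and 0.115 for Fgf16).

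Of 10 measured FGF receptor relatives, coreceptors and binding proteins (11 listed), 1 was higher and 2 were lower in siKlf4 with TGFβ, and without TGFβ 0 were higher and 2 lower. The lower ones were the same in both: Flrt1 and Flrt3, transmembrane proteins that bind FGF receptors. Flrt3 read 6.98 and 6.83 in siKlf4 with TGFβ, 8.11 and 8.09 in siControl with TGFβ, 6.57 and 6.52 in siKlf4 without TGFβ, and 7.44 and 7.50 in siControl without TGFβ. Its groups did not overlap, and it fell by 1.19 in siKlf4 with TGFβ (adjusted p = 8.07e-06) and by 0.93 without (adjusted p = 5.89e-05). Flrt1 was lower in siKlf4 than in siControl by 1.36 with TGFβ and by 0.995 without (adjusted p = 3.38e-06 and 3.31e-05). Fgfrl1, a receptor relative without a kinase domain, was 0.47 higher in siKlf4 with TGFβ (adjusted p = 0.0355). This call was lost in 4 of the 8 fits without 1 array, those without any of the 4 arrays compared (differences from 0.36 to 0.58). Without TGFβ the difference was 0.45, just short of the threshold (adjusted p = 0.0522). It passed with the replicate number as a block (adjusted p = 0.00761) and with trend and robust options (0.0170). It also passed after cyclic loess (0.0384) and with the filter on dim genes (0.0408).

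Of 6 other PDGF genes and PDGF-processing proteases, Furin alone was called, higher in siKlf4 both with and without TGFβ. Furin is a convertase that cleaves PDGF-A and PDGF-B precursors. It read 9.999 and 10.002 in siKlf4 with TGFβ and 8.93 and 8.94 in siControl with TGFβ. In the absence of TGFβ, Furin read 10.04 and 10.11 in siKlf4 and 9.20 and 9.12 in siControl. The difference was 1.06 with TGFβ (adjusted p = 1.05e-05) and 0.92 without (adjusted p = 4.12e-05), and as for Pdgfb the arrays split by siRNA with no overlap. Pdgfra, the PDGF receptor alpha, was not called in any comparison and ranged between 4.60 and 5.36 over the arrays.

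Of 15 adaptors and effectors that couple receptor tyrosine kinases to their pathways, 9 were higher and 1 was lower in siKlf4 with TGFβ, and 7 were higher and 1 was lower without. The median difference was 0.39 with TGFβ and 0.24 without, beside −0.03 and 0.00 over all genes. Among the higher ones were the adaptor Nck2 (0.71 with TGFβ and 0.60 without, adjusted p = 0.00122 and 0.00398), the docking protein Gab2 (0.68 and 0.57, adjusted p = 0.00154 and 0.00506; without TGFβ both were lost with unmoderated contrasts, at 0.0540 for Nck2 and 0.0584 for Gab2) and the phospholipase Plcg1 (0.57 and 0.60, adjusted p = 4.05e-04 and 4.20e-04). The lower one was Pik3r1, a regulatory subunit of PI3 kinase, with differences of −1.14 with TGFβ and −0.52 without (adjusted p = 2.66e-05 and 0.00446). Pik3r1 read 7.71 and 7.81 in siKlf4 with TGFβ, 8.83 and 8.97 in siControl with TGFβ, 7.65 and 7.45 in siKlf4 without TGFβ, and 8.05 and 8.08 in siControl without TGFβ. As for Fgf18, the siControl arrays with TGFβ were the highest.

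Of 11 feedback inhibitors and target genes of FGF receptor signaling, 2 were higher and 5 lower in siKlf4 with TGFβ, and 1 was higher and 3 were lower without. The medians were −0.16 and −0.01. Spry1, a Sprouty inhibitor of receptor tyrosine kinase signaling, read 8.08 and 8.33 in siKlf4 with TGFβ and 9.13 and 9.02 in siControl with TGFβ. Without TGFβ it read 8.11 and 8.28 in siKlf4 and 8.25 and 8.15 in siControl, so that only siControl with TGFβ stood apart. It fell by 0.87 in siKlf4 with TGFβ (adjusted p = 3.14e-04). Without TGFβ the difference was −0.01 (95% interval −0.26 to 0.23), and the interaction of −0.86 (adjusted p = 0.0328) was lost in 7 of the 8 fits without 1 array, up to 0.154, all but the fit without siKlf4 replicate 1. Spry2, of the same family, was lower in siKlf4 than in siControl by 0.64 with TGFβ (adjusted p = 6.96e-04) and by 0.34 without (adjusted p = 0.0281). The second call was lost in 5 of the 8 fits without 1 array, namely those without any siControl array or without siKlf4 replicate 1. That difference ranged from −0.40 to −0.27 in the 8 fits. Dusp6, an ERK phosphatase, was lower in siKlf4 than in siControl by 0.57 with TGFβ and by 0.47 without (adjusted p = 0.00216 and 0.00812). The second call was lost without siControl replicate 1 (difference −0.38). The higher ones were Spred2, a Sprouty-related inhibitor (0.56 with TGFβ and 0.996 without, adjusted p = 6.17e-04 and 2.80e-05), and with TGFβ Spred3 (0.45, adjusted p = 0.00394).

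Of 4 splicing regulators that act on FGF receptor exons, Rbfox2 was higher in siKlf4 with and without TGFβ (0.61 and 0.55, adjusted p = 3.39e-04 and 8.29e-04). Esrp2, an epithelial splicing regulator that favors the epithelial FGFR2 form, read 8.13 and 8.18 in siKlf4 with TGFβ and 8.20 and 8.30 in siControl with TGFβ. Without TGFβ it read 7.64 and 7.60 in siKlf4 and 8.25 and 8.12 in siControl, so that the siKlf4 arrays without TGFβ were the low ones. The difference was −0.57 without TGFβ (adjusted p = 0.00112) and −0.10 with TGFβ (95% interval −0.29 to 0.09, adjusted p = 0.486), and the interaction was not called (adjusted p = 0.109). Esrp1, its paralog, read between 3.73 and 4.06 and was among the dimmest 30% of genes.

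Unmoderated contrasts lost further calls among these pathway genes: with TGFβ, Fgf21 (adjusted p = 0.105), Fgf16 (0.0643) and Fgfrl1 (0.176), without TGFβ, Fgf13 (0.145), Spry2 (0.0742) and Dusp6 (0.0552), and the Spry1 interaction (0.220).

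**Figure D4:**
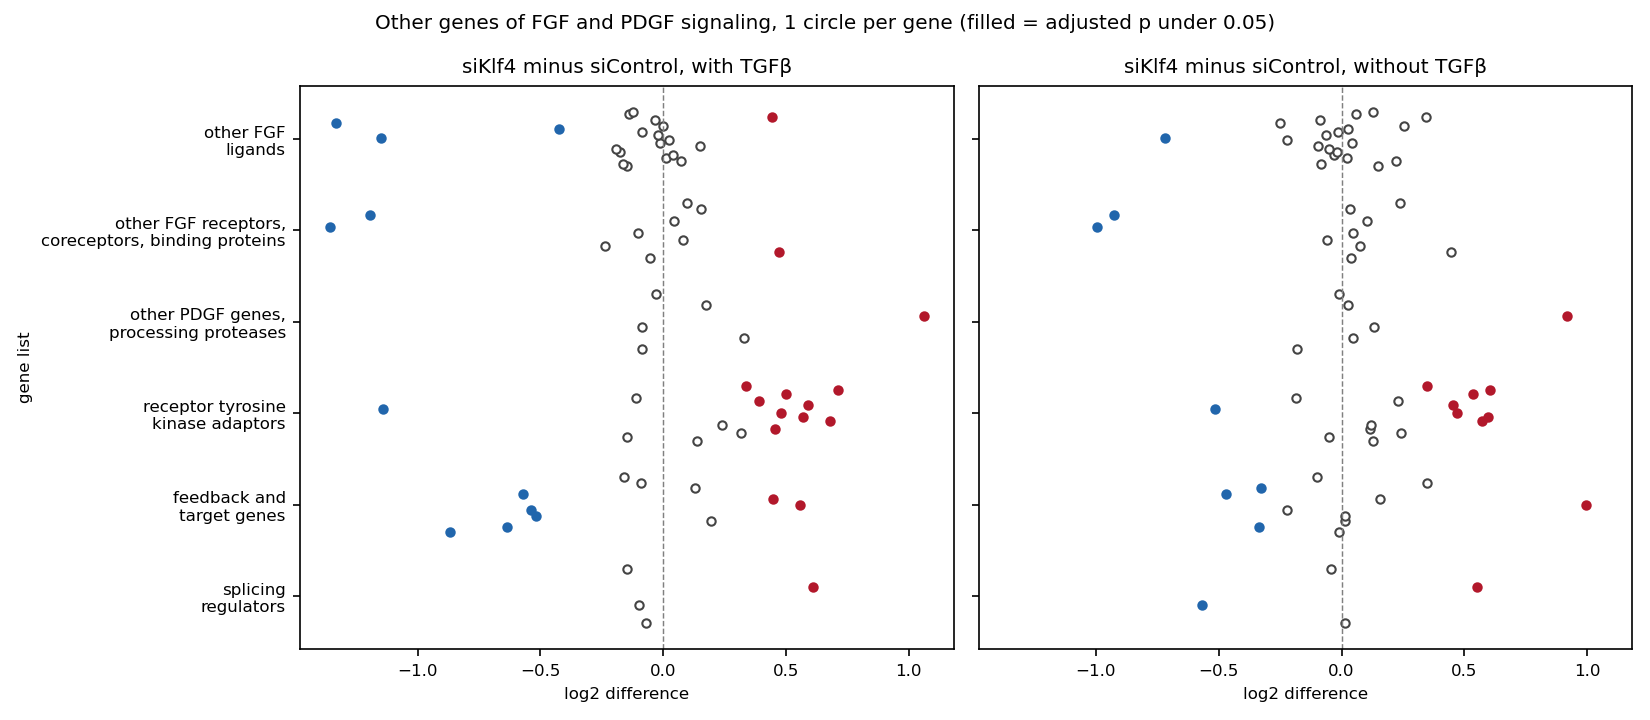
Log2 differences of siKlf4 minus siControl (x axis), with TGFβ on the left and without on the right, for the 66 measured genes of 6 pathway lists (rows). Each circle is a gene and filled circles have an adjusted p under 0.05; the adaptors lie mostly to the right of 0 (9 and 7 filled circles higher), while the feedback genes have 5 filled circles below 0 with TGFβ and 3 without.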

How the data were processed

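RNA from NMuMG cells was profiled on 8 Affymetrix gene arrays, 2 per group. The deposited values are log2 values per probe set that the authors made with Robust Multi-Array normalization, for which oligo 1.14.0 is named in the submitters' processing notes. The log2 scale was read from the range of the values. Of 34760 probe sets, 21640 have 1 gene symbol, 1321 have several and 11799 are unnamed here. The probe set with the highest mean was kept per gene, which gave 19937 genes. No detection calls were used, and the number of arrays limits the precision.

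Groups were compared with limma 3.58.1 under R 4.3.3 (1 mean per group over all 8 arrays, eBayes, 4 residual and 4.93 prior degrees of freedom), with Benjamini-Hochberg adjustment over all genes and a threshold of 0.05, after the fit was tested on simulated data. Replicate numbers were not taken to pair the arrays. The methods name an analysis of variance across groups, and its unmoderated contrasts are among the alternatives, with the other normalizations, a filter on the dimmest 30% and arrays left out. The members, the lists and the naming rule were chosen with earlier results of these data known. Named genes are all members, Klf4, up to 4 genes of each list with the largest differences in the siKlf4 comparisons plus any called the other way, and the 3 nearest patterns of 4 members. The promoter windows are from RefSeq.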

Additional observations from a re-analysis of the deposited data

Results flagged for a closer look

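Fgfr2 and the Fgfr2 to Fgfr1 balance moved in opposite ways with TGFβ in siKlf4 and in siControl on every array. For Fgfr2 the interaction (the siKlf4 effect in the presence of TGFβ minus the effect in its absence) was −0.57, at an adjusted p of 0.0509 (limma). It passed the threshold with trend and robust options (0.0051), quantile normalization (0.0413), cyclic loess (0.0360) and the filter on dim genes (0.0332), and in none of the 8 fits without 1 array (adjusted p from 0.0712 to 0.215). For the balance the same difference was −0.54, and it was not tested.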

How the results depend on the processing

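No result changed direction past the threshold. The count of the 10 genes called between siKlf4 and siControl without TGFβ stayed at 7 in every alternative, and with TGFβ it stayed at 6 except after cyclic loess, where it was 7 through Pdgfrb. For TGFβ against none in siKlf4 the count of 4 became 1 with unmoderated contrasts, 2 after quantile normalization and 2 with only the 4 arrays compared, and ranged from 0 to 3 with 1 array left out. In siControl the count of 2 became 4 with trend and robust options, 1 with unmoderated contrasts, 4 after quantile normalization, 3 after cyclic loess and 3 with the filter on dim genes, and ranged from 1 to 3 with 1 array left out. Fgfr2 was gained in each of the 4 of these alternatives with a higher count, and Fgfbp1 in 2 of them and in 2 fits without 1 array, with an adjusted p of 0.0349 with trend and robust options, 0.0482 after quantile normalization, 0.0411 without siControl replicate 1 and 0.0449 without replicate 1 of siControl with TGFβ. The interaction count of 0 became 1 with trend and robust options, quantile normalization, cyclic loess or the filter on dim genes. With 1 array left out, the change of the balance ranged from −1.46 to −1.27 for siKlf4 with TGFβ, from −0.36 to −0.17 for TGFβ in siKlf4 and from −0.64 to −0.44 for the interaction, which was −0.63 after cyclic loess. Where a group keeps 1 array, its spread is taken from the other groups. The interaction could not be fitted with only 4 arrays. The causes were not tested.

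Over all genes, the 2569 called for TGFβ in siKlf4 ranged from 1274 (without replicate 2 of siKlf4 with TGFβ) to 3446, the 2484 in siControl from 1090 (without replicate 2 of siControl with TGFβ) to 3331, and the 304 of the interaction from 0 with unmoderated contrasts to 760, the highest of each with trend and robust options. No alternative moved the median of all genes by over 0.045. The counts of other pathway genes, examined in the same alternatives after the data were seen, ranged with 1 array left out from 22 to 27 with TGFβ and from 16 to 18 without. A fit with the replicate number as a block gave the same counts of the 10 genes except for TGFβ in siKlf4, where Fgfr2 was lost (3 called, adjusted p = 0.0541). Same-numbered arrays correlated in their deviations at 0.38 between siControl and siKlf4 without TGFβ and between −0.05 and 0.04 for the other 5 pairs of groups, so the numbers were not taken to pair the arrays. Between siControl and siKlf4 without TGFβ, where they deviated together, the block kept 7 called. Across single results of the 10 genes, 378 of the values with 1 array left out kept their side of the threshold, 20 lost it and 2 gained it, and in the other alternatives 365 kept it, 9 lost it and 11 gained it.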
